A study of Mus musculus with 6 samples.

Results

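The Ikaros family (Ikzf1 to Ikzf5) and Bcl11a, zinc finger transcription factors of blood progenitors and lymphocytes, were followed in LSK cells with and without active Notch1. LSK cells are marrow cells that lack lineage markers and carry cKit and Sca1, among them the hematopoietic stem cells and the earliest multipotent progenitors. Every probe set annotated to 1 of the 6 symbols was taken, which gave 20 of the 45037 probe sets on the array other than controls, and 6 of 18193 genes when each gene was represented by its brightest probe set. The 3 WT mice carried the genotype Mx1-cre+, and the 3 N1IC mice carried lox-stop-lox N1-IC together with Mx1-cre+. N1-IC is the intracellular, active part of the receptor Notch1. All were 5 weeks old, and all, controls included, had been given polyIC (3 injections of 20 mcg per g, from the age of 21 days), with cells taken 2 weeks after the last. PolyIC induces interferon, which switches on Cre from the Mx1 promoter in blood cells and in other interferon-responsive cells, so N1-IC was not limited to LSK cells. The treatment text names floxed Ncstn alleles where the genotype labels name N1-IC, and the groups here follow the genotype labels. The WT mice were 2 males and 1 female, WT replicate 2, and the N1IC mice were all female. Each sample is described as from a mouse, with no word on which were littermates.

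Ikaros (Ikzf1) is the founding member of a family whose proteins bind DNA through zinc fingers near one end and pair with each other through zinc fingers at the other end. Helios (Ikzf2) and Aiolos (Ikzf3) are its lymphoid relatives, while Eos (Ikzf4) and Pegasus (Ikzf5) are expressed more widely. Ikaros recruits chromatin remodelling and deacetylase complexes, is needed for the lymphoid priming of multipotent progenitors, and represses many Notch target genes in developing T cells. Bcl11a is needed for B cell development and silences embryonic and fetal globin genes in red cells, and its paralog Bcl11b is needed for commitment to the T lineage.

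The 6 arrays had median intensities between 89.0 and 92.4. Kit, which encodes the sort marker cKit, was bright in both groups, between 11.58 and 11.94 in WT and between 11.45 and 11.57 in N1IC on the log2 scale, and the gene of Sca1 was not analysed here. Of 8 LSK markers, 6, among them Cd34, Flt3 and Slamf1, fell in N1IC (3 without WT replicate 3, and 2 with sex as a covariate). Over all genes, 8.31% were called lower. No detection call was used, so no gene is called absent. In bulk samples such as these, fewer cells of a type and less RNA per cell cannot be told apart. All levels below are log2 intensities, which are compared between groups for 1 probe set at a time, since the brightness of different probe sets does not rank genes. Fold changes are the N1IC mean minus the WT mean, tested by limma.

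None of the 6 genes passed the limma test at an adjusted p of 0.05 on its brightest probe set, against 11.8% of all genes (3.47% higher and 8.31% lower). At an unadjusted p of 0.05, 2 of 6 passed, against 26.6% of all genes. In the fit over probe sets, 1 of the 20 passed, a probe set of Ikzf2 that was higher in N1IC, against 7.92% of all probe sets (3.16% higher and 4.76% lower), and 5 of 20 passed at an unadjusted p of 0.05, against 23.4%. The groups did not overlap on 3 of the 20 probe sets, 2 of Ikzf2 and 1 of Bcl11a, against 29.5% of all probe sets. The median log2 fold change of the 20 was 0.08, beside 0.02 over all probe sets.

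**Figure D1:**
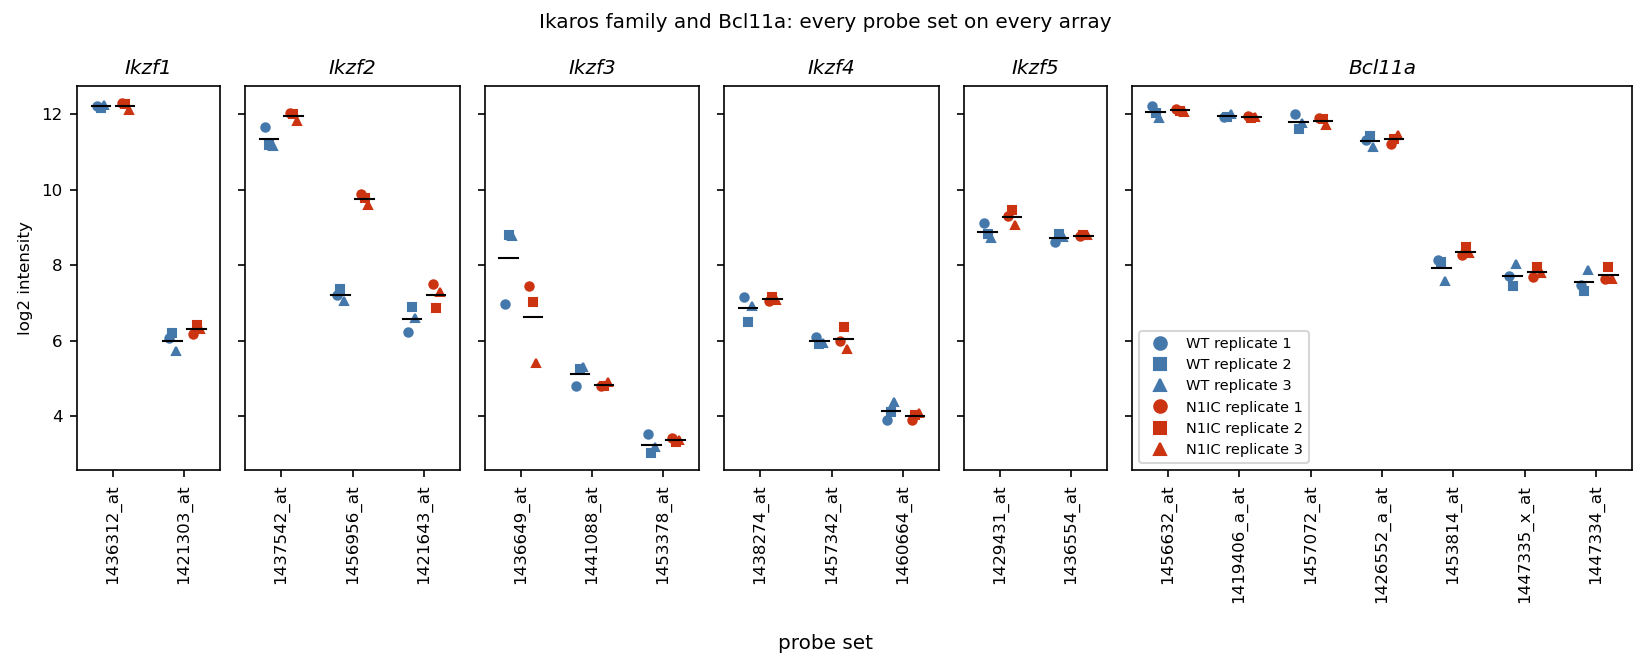
Log2 intensity (vertical axis) of each of the 20 probe sets on each of the 6 arrays, with WT in blue, N1IC in red, 1 symbol per replicate number and a black line at each group mean. The red and blue points separate most widely on the Ikzf2 probe set 1456956_at, from 7.21 to 9.76, and scatter most on the Ikzf3 probe set 1436649_at.

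Ikzf1, which encodes Ikaros, stood at nearly the same level in both groups. Its brightest probe set, 1436312_at, read 12.23, 12.17 and 12.24 on WT replicates 1 to 3 and 12.29, 12.28 and 12.12 on N1IC replicates 1 to 3. The N1IC arrays thus spanned the WT arrays, and N1IC replicate 3 was the lowest of all 6. The log2 fold change was 0.01, with a 95% interval from -0.20 to 0.22, so a change of more than 1.17-fold lies outside the interval. The second probe set, 1421303_at, built on a RefSeq transcript, was much dimmer and read 6.07, 6.20 and 5.72 in WT and 6.17, 6.42 and 6.32 in N1IC. Its groups overlapped, since WT replicate 2 lay above N1IC replicate 1, and its log2 fold change of 0.31 did not pass the test (adjusted p = 0.285, limma). The arrays give the total over transcripts that share these probes and do not separate the splice forms of Ikaros that lack DNA-binding fingers.

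Ikzf2, which encodes Helios, was the member with a probe set that rose, 1 of its 3, while its other probe sets did not pass. The gene did not pass on its brightest probe set, and it passed with all its probe sets averaged. On probe set 1456956_at the WT arrays read 7.20, 7.37 and 7.06 and the N1IC arrays 9.90, 9.79 and 9.59. Every N1IC array lay more than 2 log2 units above every WT array, and the means were 9.76 ± 0.16 and 7.21 ± 0.15 (SD, n = 3). The rise was 5.85-fold, a log2 fold change of 2.55 ± 0.13 (SE), and its adjusted p was 0.000956 (limma, Benjamini-Hochberg over all probe sets). It passed in every alternative fit in which it was tested, with log2 fold changes from 2.39 to 2.63, and at 2.39 with sex as a covariate (adjusted p = 0.0178 by limma).

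The brightest Ikzf2 probe set, 1437542_at, read 11.67, 11.18 and 11.17 in WT and 12.02, 12.00 and 11.82 in N1IC. The groups did not overlap, and WT replicate 1 was the WT array closest to N1IC. Its 1.53-fold difference, a log2 fold change of 0.61 ± 0.16 (SE), missed the threshold at an adjusted p of 0.0798 over all probe sets, and at 0.0622 with 1 probe set a gene (limma). With 1 probe set a gene, it was 0.77 and passed without WT replicate 1 (adjusted p = 0.0128, limma), while without any other array it lay between 0.52 and 0.67 with adjusted p from 0.112 to 0.170, and with sex as a covariate it was 0.77 with an adjusted p of 0.177. The third probe set, 1421643_at, built on a RefSeq transcript, read 6.23, 6.90 and 6.61 in WT and 7.52, 6.87 and 7.28 in N1IC. WT replicate 2 lay just above N1IC replicate 2, and the log2 fold change of 0.65 did not pass (adjusted p = 0.161 by limma).

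The 3 probe sets of Ikzf2 had log2 fold changes above 0 of unequal size. Within each array, the log2 level of 1456956_at minus that of 1437542_at was -4.13 ± 0.33 in WT and -2.19 ± 0.06 in N1IC (SD, n = 3), a shift of 1.94, with all 3 N1IC arrays outside the WT range. Against 1421643_at the shift was 1.90, and between the other pair it was 0.04. These shifts follow from the fold changes above and are a description with no test, since an exact permutation test of 3 against 3 arrays cannot go below p = 0.1. Which transcripts of Ikzf2 each probe set detects was not analysed here. With all probe sets of a gene averaged, Ikzf2 had a log2 fold change of 1.27 and passed (adjusted p = 0.00168 by limma).

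Markers of T-lineage cells, some of which express Helios, were mostly higher in N1IC as well. Of 12 such markers 9 rose and none fell (5 rose without N1IC replicate 1, and 5 with sex as a covariate). Without WT replicate 1, 9 rose and 1 fell. The 3 that did not pass were Cd4, Cd8a and Cd8b1, with log2 fold changes of -0.62, -1.18 and 0.98. The summed log2 level of the 12 lay between 14.58 and 14.82 in N1IC and between 11.28 and 12.30 in WT. Over all genes, 3.47% were called higher. Among the WT arrays, the summed level was lowest on WT replicate 1, at 11.28. On that array Ikzf2 probe set 1437542_at was at its highest in WT (11.67), 1421643_at at its lowest (6.23) and 1456956_at in between (7.20). Ptcra in the T-lineage list is also counted among the Notch targets below, as is Il2ra in the next list. Bcl11b, described below, is in the T-lineage list too. Of 5 genes of regulatory T cells, a list that holds Ikzf2 itself, Il2ra and Ctla4 rose. Foxp3, the factor that defines those cells, read 5.81, 5.70 and 5.81 in N1IC and 6.08, 6.09 and 6.33 in WT. It did not pass (log2 fold change -0.40, adjusted p = 0.0518 by limma). Tnfrsf18, also in the list, did not pass either (log2 fold change -0.33, adjusted p = 0.0751 by limma). The part of these cells in the level of Ikzf2 was not tested.

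Ikzf3, which encodes Aiolos and is known from B and T cells more mature than LSK cells, varied more between arrays of 1 group than any other member. Its brightest probe set, 1436649_at, read 6.97, 8.81 and 8.77 in WT and 7.45, 7.03 and 5.42 in N1IC. WT replicate 1 lay far below the other WT arrays and inside the N1IC range, so the groups overlapped. The N1IC mean was 2.93-fold lower, at 6.63 ± 1.07 against 8.18 ± 1.05 (SD, n = 3), with a log2 fold change of -1.55, a 95% interval from -3.28 to 0.18 and an adjusted p of 0.259 (limma, over all probe sets). Without WT replicate 1 the log2 fold change was -2.16 and still missed the threshold (adjusted p = 0.0957 by limma with 1 probe set a gene), and without N1IC replicate 3 it was -0.95. The other probe sets of Ikzf3 lay among the dimmest 40% on the array, and their log2 fold changes were -0.28 for 1441088_at and 0.12 for 1453378_at.

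On WT replicate 1, Ikzf3 lay 1.82 log2 units below the mean of the other WT arrays, and markers of several mature cell types were low there too. All 7 neutrophil and monocyte markers were lowest among the WT arrays on WT replicate 1, as were 4 of 5 NK cell, 9 of 11 plasmacytoid dendritic cell, 10 of 12 T-lineage and 7 of 11 B-lineage markers, against 36.5% of all genes. At least 2-fold below the mean of the other WT arrays were 4 neutrophil and monocyte, 3 NK cell, 4 plasmacytoid dendritic cell, 7 T-lineage and 1 B-lineage marker, against 2.97% of all genes. The NK cell receptor gene Klrd1, for example, read 7.94 on WT replicate 1 and 10.73 and 10.21 on the others. Summed over each list, WT replicate 1 lay 0.94 log2 units below the other WT arrays for neutrophils and monocytes, 0.89 for T-lineage, 0.64 for plasmacytoid dendritic, 0.42 for B-lineage and 0.27 for NK cells. It also lay below them by 0.81 for macrophages, 0.49 for megakaryocytes and 0.37 for erythroid cells, while it lay 0.31 above them for regulatory T cells and LSK markers differed by 0.02. Summed neutrophil and monocyte markers lay between 14.86 and 15.84 in WT and between 13.17 and 14.07 in N1IC. In the same order, plasmacytoid dendritic cell markers lay between 13.56 and 14.28 and between 13.61 and 14.02. B-lineage markers lay between 14.24 and 14.84 and between 12.46 and 12.50. NK cell markers lay between 12.99 and 13.37 and between 13.31 and 13.38. Such sums follow the brightest genes. The median log2 fold change was -1.31 for NK cell and -0.43 for plasmacytoid dendritic cell markers, beside -0.01 over all genes. Of the NK cell markers Nkg7 rose (0.37), and Ncr1, Klrd1, Eomes and Prf1 did not pass (-1.31, -1.74, -1.74 and -0.01). Of 11 plasmacytoid dendritic cell markers 1, Tlr7, fell, against 8.31% of all genes. Without WT replicate 1, 3 NK cell and 4 plasmacytoid dendritic cell markers fell. On N1IC replicates 1 to 3, Ikzf3 read 7.45, 7.03 and 5.42. Summed neutrophil and monocyte (13.17, 13.86 and 14.07), macrophage (10.38, 10.33 and 11.52), NK cell and LSK markers were highest on N1IC replicate 3. Summed T-lineage (14.76, 14.82 and 14.58), erythroid (14.64, 14.36 and 14.06), megakaryocyte and regulatory T cell markers were lowest on it. B-lineage (12.46, 12.50 and 12.47) and plasmacytoid dendritic cell markers lay between. The part of these cells in the level of Ikzf3 was not tested.

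**Figure D2:**
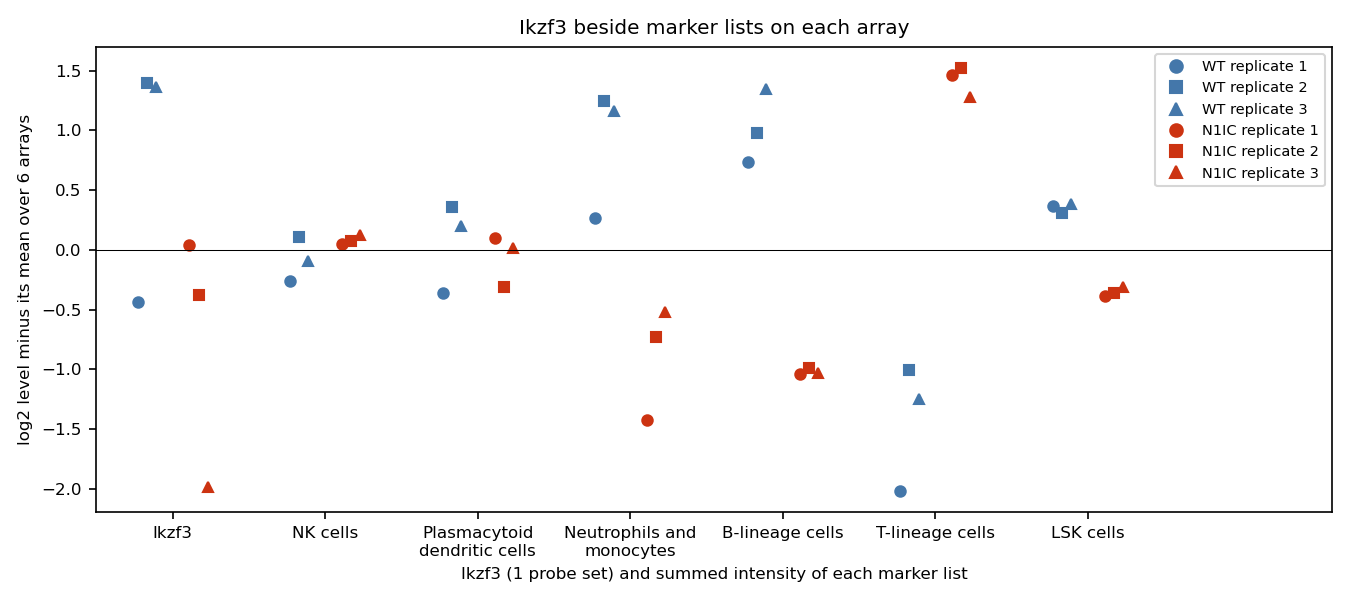
Log2 level on each array minus the mean over the 6 arrays (vertical axis), for Ikzf3 on 1 probe set and for the summed intensity of 6 marker lists, with WT in blue and N1IC in red. The blue circle, WT replicate 1, lies below the other WT arrays for Ikzf3, by 1.82, and for every list shown other than the LSK markers, where the difference is 0.02.

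Ikzf3 was the member whose group means on the brightest probe set differed at least 2-fold, and the 3 genes whose profiles over the 6 arrays were most like it were Tex15, Aldh1a1 and F2rl2. The measure was the root mean square difference between profiles centred on their means, which was 0.28 log2 units for Tex15, a gene of germ cells, 0.39 for Aldh1a1, a retinaldehyde dehydrogenase, and 0.42 for F2rl2, a receptor for thrombin. Each was lower on WT replicate 1 than on the other WT arrays and lowest on N1IC replicate 3, and none of the 3 passed the test. The genes were chosen for likeness to Ikzf3 on these same arrays, so the shared shape largely follows from the choice.

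Ikzf4, which encodes Eos, and Ikzf5, which encodes Pegasus, did not pass on any probe set. The brightest Ikzf4 probe set, 1438274_at, read 7.16, 6.50 and 6.92 in WT and 7.04, 7.15 and 7.09 in N1IC. The N1IC arrays lay close together inside the WT range, with a log2 fold change of 0.24 and a 95% interval from -0.19 to 0.66. The other Ikzf4 probe sets had log2 fold changes of 0.07 and -0.13, the second of them among the dimmest 40%. For Ikzf5, probe set 1429431_at read 9.13, 8.83 and 8.71 in WT and 9.32, 9.47 and 9.08 in N1IC. Only WT replicate 1 lay above the lowest N1IC array, and the log2 fold change of 0.40 had an adjusted p of 0.196 (limma). The other Ikzf5 probe set, 1436554_at, read 8.61, 8.84 and 8.74 against 8.78, 8.79 and 8.79, a log2 fold change of 0.06 with a 95% interval from -0.16 to 0.28.

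Bcl11a held its level on each of its 4 bright probe sets. The brightest, 1456632_at, read 12.22, 12.04 and 11.92 in WT and 12.15, 12.09 and 12.07 in N1IC. All 3 N1IC arrays fell inside the WT range, and the log2 fold change was 0.05 with a 95% interval from -0.21 to 0.30. Probe set 1419406_a_at, built on a RefSeq transcript, read 11.92, 11.92 and 12.02 against 11.95, 11.90 and 11.94, and its interval, from -0.21 to 0.16, leaves out a change of more than 1.16-fold. The other bright pair, 1457072_at and 1426552_a_at, had log2 fold changes of 0.03 and 0.04, with no change above 1.27-fold inside either interval.

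The 3 dimmer probe sets of Bcl11a had log2 fold changes between 0.09 and 0.43. On 1453814_at the WT arrays read 8.14, 8.09 and 7.58 and the N1IC arrays 8.28, 8.49 and 8.32. The groups did not overlap there, and WT replicate 3 was the lowest, but the difference did not pass (adjusted p = 0.201 by limma). Probe sets 1447335_x_at and 1447334_at were built on the same expressed sequence and are not independent of each other. They differed by 0.09 and 0.19, with overlapping groups.

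Bcl11b, the paralog of Bcl11a, rose on all 4 of its probe sets. It is also in the list of T-lineage markers and counted among those that rose there, and the part of those cells was not tested. On its brightest, 1435227_at, the WT arrays read 8.39, 9.88 and 8.88 and the N1IC arrays 12.17, 11.81 and 11.74. The groups were separated by almost 2 log2 units, the rise was 7.23-fold and the adjusted p was 0.0115 by limma over all probe sets. The other 3 probe sets rose 8.53-fold to 10.8-fold. The difference between the brightest probe sets of Bcl11b and Bcl11a shifted by 2.81 log2 units between WT and N1IC, with all 3 N1IC arrays outside the WT range, which is given as a description with no test.

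**Figure D3:**
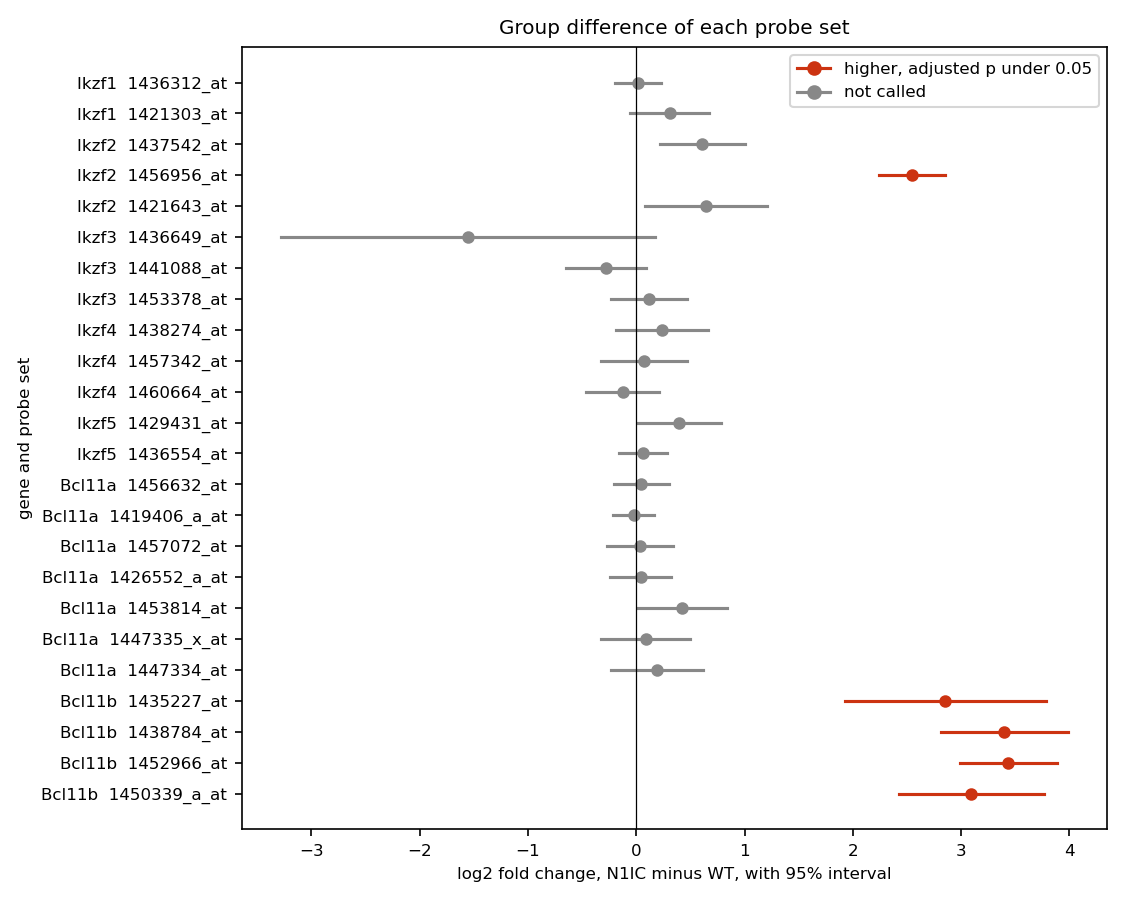
Log2 fold change of N1IC against WT (horizontal axis) with its 95% interval, for the 20 probe sets of the Ikaros family and Bcl11a and the 4 of Bcl11b. Red marks an adjusted p under 0.05. Of the 20, the Ikzf2 probe set 1456956_at is red, at 2.55, as are all 4 of Bcl11b, while the intervals of the 4 bright Bcl11a probe sets stay close to 0.

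Ikaros recognises the core TGGGAA, letters that the DNA-binding partner of Notch, RBPJ, also recognises. Promoters were therefore searched for TGGGAA on both strands in the 250 bases before the RefSeq start (build GRCm38.p6), 4 of them for members: 2 for Ikzf1 and 1 each for Ikzf5 and Bcl11a. A match was found in 1 of the 4, that of Bcl11a, while 21.6% of all 32851 promoters of that length held 1. Of 5 promoters of Notch targets that Ikaros represses, 1 held a match, that of Ptcra, with 2 matches. No promoter was searched for Hes1, also a gene of that list, or for Ikzf2, Ikzf3 and Ikzf4. Shown are Bcl11a (chr11:24080445-24080694, plus strand), whose level held, its paralog Bcl11b (chr12:108003415-108003664, minus strand), which rose, and Ptcra (chr17:46763713-46763962, minus strand), each written along the gene with TGGGAA in capitals. The match begins 161 bases before the start in Bcl11a and 84 and 32 bases before it in Ptcra, and the window of Bcl11b holds none. A match is a stretch of letters and not a bound site.
Bcl11a: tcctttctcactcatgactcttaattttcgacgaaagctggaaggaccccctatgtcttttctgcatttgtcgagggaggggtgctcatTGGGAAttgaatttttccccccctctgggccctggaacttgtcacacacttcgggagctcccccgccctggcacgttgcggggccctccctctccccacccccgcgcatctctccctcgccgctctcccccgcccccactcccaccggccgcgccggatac
Bcl11b: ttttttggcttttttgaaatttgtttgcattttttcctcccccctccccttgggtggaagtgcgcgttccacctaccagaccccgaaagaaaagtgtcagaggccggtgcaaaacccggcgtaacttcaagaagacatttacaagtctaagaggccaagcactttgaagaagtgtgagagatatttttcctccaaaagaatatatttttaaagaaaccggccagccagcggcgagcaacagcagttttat
Ptcra: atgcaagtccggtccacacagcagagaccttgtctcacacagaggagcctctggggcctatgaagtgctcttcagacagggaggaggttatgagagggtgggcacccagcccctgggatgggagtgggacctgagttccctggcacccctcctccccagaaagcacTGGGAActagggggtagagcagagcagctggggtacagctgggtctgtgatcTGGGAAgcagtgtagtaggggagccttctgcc

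Ikaros and Bcl11a act through corepressor subunits. Of 18 genes of the NuRD complex and other partners, 2 rose, 1 fell and 15 did not pass, against 11.8% called over all genes. The groups did not overlap on 8 of the 18, against 5967 of all 18193 genes. The median log2 fold change of the 18 was -0.01, beside -0.01 over all genes. Mta3, a NuRD subunit, rose 2.14-fold, from 11.64, 11.73 and 11.69 in WT to 12.78, 12.84 and 12.75 in N1IC. All N1IC arrays lay about 1 log2 unit above the WT arrays (adjusted p = 0.00103, limma), and with all its probe sets averaged the log2 fold change went from 1.10 to 0.62 and still passed (adjusted p = 0.00464, limma). Chd4, the remodelling ATPase of NuRD, rose by 0.37 and Ctbp2, a corepressor that binds Ikaros, fell by 0.55 on the log2 scale. Both calls, at adjusted p of 0.0407 and 0.0442 (limma), were lost when any of the 6 arrays was left out. The deacetylase genes Hdac1 and Hdac2 did not pass, with log2 fold changes of -0.08 and 0.02.

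Notch target genes that Ikaros is known to repress in T cells rose in every case, 6 of 6, against 3.47% called higher over all genes. Their median log2 fold change was 5.30. Earlier results on these samples were known when the list was drawn up, and its genes are also Notch targets, so its direction is not independent evidence about Ikaros. Nrarp, a feedback inhibitor of Notch, read 10.50, 9.78 and 9.80 in WT and 12.55, 12.53 and 12.62 in N1IC, a log2 fold change of 2.54 and the smallest of the 6. Ptcra, whose protein pairs with the T cell receptor beta chain in pre-T cells and whose promoter is shown above, had a log2 fold change of 6.77. On the same arrays the brightest Ikzf1 probe set differed by 0.01.

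Of 7 measured genes listed for lymphoid priming, which needs Ikaros, 3 fell, none rose and 4 did not pass. Over all genes, 11.8% were called, and the median log2 fold change of the 7 was -0.82. Whether each of these genes needs Ikaros was not tested. Flt3, the cytokine receptor of multipotent progenitors, and the surrogate light chain genes Igll1 and Vpreb1 fell by 3.08, 4.90 and 2.77 on the log2 scale, with adjusted p between 0.00182 and 0.00266 (limma). All 3 are also in marker lists, Flt3 in that of LSK cells, of which 6 of 8 fell, and Igll1 and Vpreb1 in that of B-lineage cells, of which 7 of 11 fell, and the part of those cells was not tested. Il7r, the interleukin 7 receptor chain of lymphoid progenitors, read 9.81, 11.07 and 10.98 in WT and 12.11, 12.07 and 11.69 in N1IC. Its groups did not overlap, and its log2 fold change of 1.34 missed the threshold (adjusted p = 0.0656 by limma) and passed without WT replicate 1, at 0.93 (adjusted p = 0.0251, limma). Rag1 and Rag2, the recombinase genes, had log2 fold changes of 0.48 and 1.01, and Dntt, which adds bases at recombined ends, stood at -0.82.

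Of 9 transcription factors that act beside Bcl11a in B cell development, 5 fell, none rose and 4 did not pass. Over all genes, 8.31% were called lower and 3.47% higher. The median log2 fold change of the 9 was -1.17. Ebf1, a factor that sets the B cell programme, fell by 5.51 on the log2 scale, the most of the 9. Irf8, Irf4, Foxo1 and Mef2c fell by 2.92, 1.54, 1.43 and 1.17. Without WT replicate 2 or WT replicate 3, 3 of the 9 fell, and with sex as a covariate 2. Tcf3 and Spi1, the genes of E2A and PU.1, did not pass, with log2 fold changes of 0.14 and -0.39, and Pax5 read between 4.63 and 5.07 on all 6 arrays. Markers of B-lineage cells fell alongside, 7 of 11, with the summed levels given above, and the part of those cells was not tested.

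Of 5 measured globin genes, a family in which Bcl11a silences embryonic members in red cells, 0 passed the limma test on the brightest probe set, and 1, Hbb-bh1, had an unadjusted p under 0.05. Over all genes, 11.8% passed and 26.6% had an unadjusted p under 0.05. The median log2 fold change of the 5 was 0.15. Hba-a2, the brightest of them, read 12.72, 12.64 and 12.61 in WT and 12.77, 12.85 and 12.81 in N1IC. Its groups did not overlap, and its log2 fold change of 0.15 did not pass (adjusted p = 0.25, limma). The embryonic gene Hbb-bh1 read 5.39, 5.28 and 5.30 in WT and 5.47, 5.66 and 5.50 in N1IC, a log2 fold change of 0.22 at low intensity. The brightest probe set of the embryonic gene Hbb-y, 1450621_a_at, differed by 0.16 with overlapping groups, and the sign turned without N1IC replicate 2 and with sex as a covariate. The other Hbb-y probe sets, 1436823_x_at and 1436717_x_at, rose by 0.64 and 0.80 (adjusted p = 0.036 and 0.0105, limma over all probe sets), from means of 3.44 and 3.25 in WT. All 3 lie among the dimmest 40% on the array, and globin genes are close copies whose probes can share signal, so these values are uncertain. With all probe sets of a gene averaged, Hbb-y was the globin gene called higher, at 0.53 (adjusted p = 0.0148, limma). Of 6 factors that act with or around Bcl11a on globin genes, 1 fell, against 8.31% called lower over all genes. That gene, Sox6, read 9.86, 9.04 and 9.17 in WT and 7.27, 7.35 and 6.74 in N1IC, a fall of 2.23 on the log2 scale with an adjusted p of 0.0058 (limma), lost with sex as a covariate (adjusted p = 0.0744). Erythroid markers did not pass, in 0 of 6 measured, with summed levels between 13.72 and 14.30 in WT and between 14.06 and 14.64 in N1IC.

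**Figure D4:**
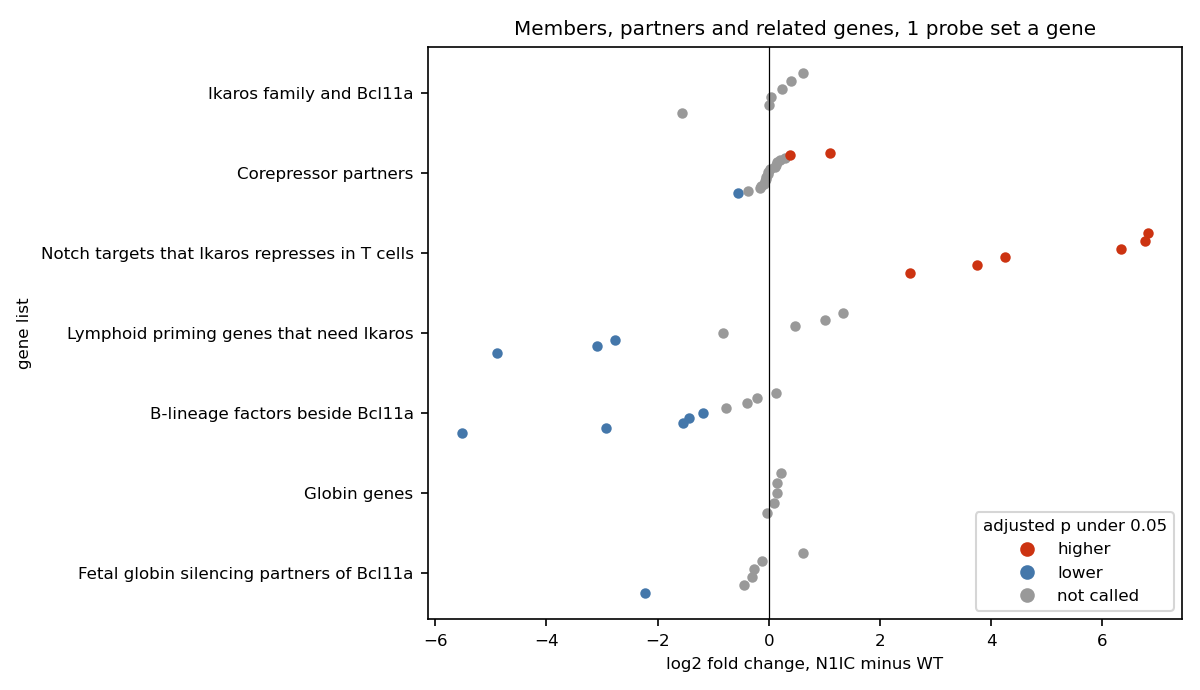
Log2 fold change of N1IC against WT (horizontal axis) for each gene, on its brightest probe set, of the 6 members and of 6 lists of partners and related genes, with red for higher, blue for lower and grey for genes that did not pass. The Ikaros family and Bcl11a lie between -1.55 and 0.61 with none called, while all 6 Notch targets lie above 2.5 and 5 of 9 B-lineage factors are blue.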

How the data were processed

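RNA from LSK cells of 3 WT and 3 N1IC mice was amplified from 5 ng, labelled and hybridised, 1 Affymetrix array per sample, per the labels' protocols. The deposited values are linear probe set intensities that the authors made with RMA, per the submitters' processing notes, with version and settings not given in the sources used here. Neither scanner files nor detection calls entered the analysis. The linear scale was settled from the range of the values, and log2 was taken before any test.

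Of 45101 probe sets, 34945 had 1 symbol in the platform annotation, 932 several, 9160 none and 64 were controls. RefSeq (GRCm38.p6) gave current symbols for 34741 by gene ID. A gene's brightest probe set on average over the arrays stood for it. The test was limma's (version 3.58.1, R 4.3.3; lmFit, then eBayes), two-sided and without covariates. P-values were adjusted after Benjamini and Hochberg over 18193 genes or 45037 probe sets, at a threshold of 0.05, and 4 residual and about 2.05 prior degrees of freedom. The code was tested on simulated data. Plots used matplotlib 3.10.9.

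The members, lists and alternatives were chosen with earlier results of these data known. Up to 4 called genes of each list of partners and related genes, smallest p first, or else its 2 brightest, were to be named. Of the Notch targets, Nrarp and Ptcra were named instead, though their p-values were the largest of that list. Any other gene set beside a member was named after its values were seen. Such genes are Il7r, Rag1, Rag2, Dntt, Tcf3, Spi1, Irf4, Hdac1, Hdac2, Hbb-y, Foxp3, Tnfrsf18 and Klrd1, among others. Genes of the lists that are not counted were not analysed here. Nothing says whether the mice of a group shared a litter, and p-values measure the spread between these arrays. Same-numbered arrays did not deviate together (correlations of -0.09, -0.09 and 0.10), so numbers were not taken to pair mice. The labels hold no batch or scan date. The titles of WT replicates 1 and 2 carry the letter b after the number and the other titles do not, and its meaning is not known here. Alternatives were the replicate block, sex as a covariate, repeated quantile normalization, median centring, only the brighter 60% of features, the mean of all probe sets, an intensity trend, a robust prior, array weights, a threshold of 0.01 and leaving out each array; their use on the lists and on single probe sets was chosen after the data were examined.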

Additional observations from a re-analysis of the deposited data

How the results depend on the processing

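The count of the 6 genes called was 0 higher and 0 lower, and it became 1 higher, each time Ikzf2, with array weights, with the brighter 60% of features, with an intensity trend and with the mean of all probe sets; leaving out an array gave 0 to 1. Of the 20 probe sets, 1 was higher, 2 with an intensity trend, and 1 to 2 with an array left out. The sign of Ikzf1, near 0, turned to -0.0057 with repeated quantile normalization and ranged from -0.0164 to 0.0673 with an array left out, and that of Bcl11a from -0.0236 to 0.1305. The brightest probe set of Hbb-y turned to -0.0112 with sex as a covariate and ranged from -0.0198 to 0.3115 with an array left out. Over all genes, 632 were higher and 1512 lower; the counts were 209 and 536 at a threshold of 0.01, 357 and 936 with the replicate block, 116 and 333 with sex as a covariate, and 332 to 509 and 835 to 1420 with an array left out. Over all probe sets, 1422 and 2146 became 331 and 626 at the threshold of 0.01, 607 and 1003 with the replicate block, 161 and 344 with sex as a covariate, and 615 to 1258 and 1051 to 1964 with an array left out. Sex as a covariate sets the N1IC arrays against WT replicate 2 alone and does not measure an effect of sex. The replicate block changed no call of a member. Of the member probe sets, 3 lie outside the brighter 60%.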
